A study of Capra hircus with 10 samples.

Results

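The enzymes of glycolysis and the citrate cycle were followed in goat ovaries of the luteal and the follicular phase. Glycolysis splits glucose into pyruvate in the cytosol and ends in lactate where pyruvate is reduced. The pyruvate dehydrogenase complex turns pyruvate into acetyl-CoA in the mitochondrion, and the citrate cycle oxidises it or exports it as citrate for lipid synthesis. In the ovary, granulosa cells are known for their glycolysis and lactate output, while steroid-producing luteal cells need NADPH and the acetyl-CoA from which cholesterol is built. A list of 44 genes was used, and a gene was a member when its symbol stood in the deposited table with the gene type protein-coding. This gave 43 members of 20587 protein-coding symbols, and 43 passed the filter on low values, so the filter removed no member. LDHA is not listed under that symbol. Its RefSeq synonym LDH-A is, and it is described beside the members without being counted among them.

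All animals were Anhui white goats, and the ovaries came from a slaughterhouse as whole organs, 5 labelled luteal phase and 5 labelled follicular phase, with no treatment or allele named for either group. Age and cycle day are not given, and nothing says that the ovaries came from separate goats, so p-values measure the spread between these ovaries. Each ovary gave 1 strand-specific library, made after ribosomal RNA had been removed. Values are FPKM, the authors' estimate of mapped fragments per length of transcript and per depth of library, and the FPKM of all transcripts of a symbol were summed. Read numbers were not used here, so the depth behind a value is unknown and gives no interval.

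The markers of the luteal cell followed the labels, and those of other cell types did so only in part. STAR, the carrier of cholesterol into the mitochondrion, lay between 2081 and 3245 FPKM in the luteal phase ovaries and between 12.1 and 25.7 in the others, and 8 of 8 tested luteal cell markers were higher in the luteal phase. Summed over 8 endothelial markers, FPKM lay between 222 and 282 in luteal phase ovaries, above the 118 to 141 of the follicular phase, and 7 of the 8 rose. The 9 muscle markers summed to between 145 and 276 and to between 371 and 477, with 5 called higher in the follicular phase. The 7 granulosa cell markers summed to between 157 and 708 in the luteal phase and to at most 1192 in the follicular phase, with overlapping ranges and 3 called higher in the follicular phase, and the 9 oocyte markers to between 8.67 and 20.4 and to between 16.7 and 48.3, with 5. The 8 stromal markers summed to between 3424 and 5743 and to between 2719 and 3843, with 3 called higher in the luteal and 2 in the follicular phase. Of 7 blood markers 1 was called, while ALAS2 and SLC4A1 of the red cell stayed below 0.1 in every ovary. Over all tested genes, 15.9% were called higher in the luteal and 27.8% in the follicular phase. In whole ovaries, fewer cells of a type and less RNA per cell cannot be told apart, and the part of these markers in the results below was not tested.

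Of the 43 members, 15 were higher in luteal and 5 in follicular phase ovaries at a Benjamini-Hochberg adjusted p under 0.05. The test was limma on log2(FPKM + 0.1), luteal minus follicular, two-sided, with p-values adjusted over all 15359 genes tested. The largest rises toward the luteal phase were those of ACLY, SUCLG2, PFKP and PFKM, and the largest toward the follicular phase those of ENO2, HK2 and IDH2. Calls in either direction took 46.5% of the members, beside 43.7% of all tested genes, so the share called on the FPKM scale was near the background. By direction, 34.9% of the members and 15.9% of all genes were higher in the luteal phase, and 11.6% and 27.8% in the follicular phase. The luteal phase ovaries lay wholly above the follicular phase ovaries for 12 members (27.9%, against 11.2% of all genes) and wholly below for 3 (6.98%, against 17.2%). The median log2 fold change was 0.15 over the members and -0.14 over all tested genes. The split depended on scaling: the members divided into 20 and 3 after each ovary was shifted to a common median and into 24 and 2 on the TPM scale, while quantile normalization left 15 and 5. Of all genes, 38.8% were called with a common median, 35.8% on the TPM scale and 41.9% with quantile normalization. Over all genes the share of calls that were higher in the luteal phase was 36.3% on the FPKM scale, 48.8% with a common median, 52.5% on the TPM scale and 41.8% with quantile normalization.

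**Figure D1:**
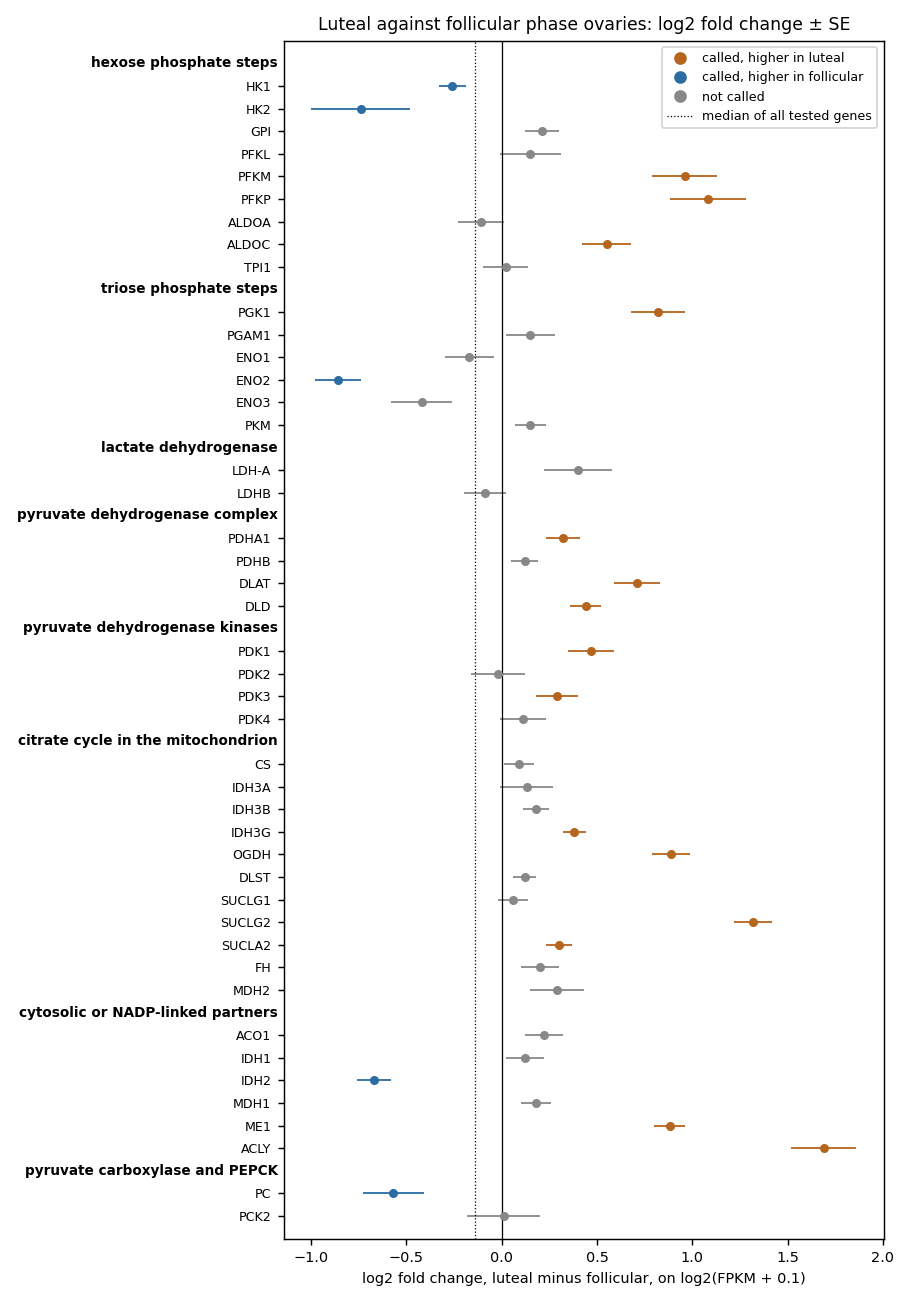
Log2 fold change of each enzyme gene, luteal minus follicular, on log2(FPKM + 0.1), with bars of 1 standard error, grouped by step. The dotted line is the median of all tested genes, -0.14. ACLY stands farthest to the right at 1.69 and ENO2 farthest to the left at -0.86. Among the triose phosphate steps PGK1 and ENO2 lie on opposite sides of 0.

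The first steps of glycolysis phosphorylate glucose and commit it to breakdown, and here the hexokinases HK1 and HK2 were higher in the follicular phase and the phosphofructokinases PFKM and PFKP in the luteal phase. HK1, the hexokinase of most tissues, had an FPKM of 24.6, 26.3, 24.5, 26.7 and 28.9 in luteal phase ovaries 1 to 5 and of 31.9, 33.5, 30.2, 31.2 and 29.9 in follicular phase ovaries 1 to 5. Every luteal phase ovary was below every follicular phase ovary, although the nearest values, 28.9 and 29.9, were close. The log2 fold change was -0.26 (standard error 0.07, limma adjusted p = 0.00854), and it no longer passed with all ovaries set to 1 median (adjusted p = 0.0996) or on the TPM scale (adjusted p = 0.116). HK2, the hexokinase induced in growing and insulin-responsive cells, was scarce, at 2.36, 1.85, 1.15, 1.55 and 1.52 in the luteal phase and at 4.31, 3.56, 2.06, 3.25 and 1.72 in the follicular phase. Follicular phase ovaries 3 and 5 fell within the luteal range. Its log2 fold change was -0.74 (standard error 0.26, limma adjusted p = 0.0372), a call that 7 of the 10 fits without 1 ovary did not keep: those without luteal phase replicate 2, 3, 4 or 5 or follicular phase replicate 1, 2 or 4, with adjusted p from 0.0505 to 0.0890. It was also lost with no filter (adjusted p = 0.0534), a common median (adjusted p = 0.0662), quantile normalization (adjusted p = 0.0875) and on the TPM scale (adjusted p = 0.0668).

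Phosphofructokinase catalyses the committed step of glycolysis, as tetramers of subunits from PFKM (muscle type), PFKL (liver type) and PFKP (platelet type). PFKP was at 26.8, 36.8, 44.0, 61.6 and 54.6 FPKM in luteal phase ovaries 1 to 5 and at 16.1, 19.0, 23.2, 22.3 and 21.3 in the follicular phase ovaries. The groups did not overlap, and the luteal phase values spread over more than those of any other member, with a coefficient of variation of 30.9%. PFKP rose by 1.08 on the log2 scale toward the luteal phase (standard error 0.20, limma adjusted p = 0.00146). PFKM was at 23.2, 13.6, 17.1, 16.6 and 19.2 in the luteal phase and at 12.6, 6.91, 9.35, 9.59 and 7.73 in the follicular phase, again without overlap. Its log2 fold change was 0.96 (standard error 0.17, limma adjusted p = 0.00116). Luteal phase ovary 1 was the highest for PFKM and the lowest for PFKP. PFKL did not pass the test, at 10.6, 7.69, 8.01, 6.40 and 7.44 against 7.43, 9.16, 5.78, 5.86 and 8.10 (log2 fold change 0.15, standard error 0.16, limma adjusted p = 0.479). PFKP was above PFKM in 10 of 10 ovaries, and PFKM above PFKL in 5 luteal phase and 3 follicular phase ovaries.

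Of the other hexose phosphate enzymes only ALDOC passed the test. ALDOC, the brain-type aldolase, rose from 1.77 ± 0.0475 in the follicular phase to 2.68 ± 0.472 FPKM in the luteal phase (SD, n = 5 each; log2 fold change 0.55, standard error 0.13, limma adjusted p = 0.00680). The far more abundant ALDOA, the aldolase of muscle and most tissues, was at 112 ± 10.3 in the luteal and 122 ± 22.5 in the follicular phase and was not called (limma adjusted p = 0.471). GPI, which interconverts glucose and fructose phosphates, was at 53.7 ± 5.07 and 46.4 ± 5.34 (adjusted p = 0.0839). TPI1, which interconverts the triose phosphates, was at 165 ± 18.9 and 163 ± 28.4 (adjusted p = 0.913). In all, 3 of the 9 hexose phosphate genes were called higher in the luteal and 2 in the follicular phase, beside 15.9% and 27.8% of all tested genes.

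In the payoff steps, where ATP is made, PGK1 stood apart from its neighbours. PGK1, phosphoglycerate kinase, was at 124, 137, 118, 147 and 135 FPKM in the luteal phase and at 79.8, 96.4, 60.0, 86.7 and 58.7 in the follicular phase. Each luteal phase ovary exceeded each follicular phase ovary. The log2 fold change was 0.82 (standard error 0.14, limma adjusted p = 0.000837). PGAM1, the next enzyme, was at 121 ± 11.2 and 111 ± 24.9 (SD, n = 5 each; adjusted p = 0.397). PKM, pyruvate kinase, which yields pyruvate, was at 130, 125, 113, 124 and 115 in the luteal phase and at 123, 113, 99.3, 112 and 102 in the follicular phase, with overlapping ranges (log2 fold change 0.15, limma adjusted p = 0.132). GAPDH, no member but the step before PGK1, was at 431 ± 27.6 and 450 ± 55.2 (adjusted p = 0.675). Many of these abundant glycolytic genes have processed copies elsewhere in mammalian genomes, and it is not known which copy received reads that match several.

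The enolases, which make phosphoenolpyruvate, differed by isoenzyme. ENO2, the form known from neurons and neuroendocrine cells, was at 3.53, 3.46, 4.82, 4.76 and 4.20 FPKM in the luteal phase and at 8.02, 7.69, 8.15, 6.90 and 7.12 in the follicular phase, so the phases were widely apart. Its log2 fold change was -0.86 (standard error 0.12, limma adjusted p = 0.000206). ENO1, the general form and the most abundant glycolytic member by median FPKM before the lactate step, was at 177 ± 21.2 and 200 ± 33.8 (SD, n = 5 each; adjusted p = 0.302). The muscle form ENO3 was at 3.21 ± 0.852 and 4.22 ± 0.356 (log2 fold change -0.42, limma adjusted p = 0.0580). It passed the threshold without luteal phase replicate 4 (adjusted p = 0.0431) or luteal phase replicate 5 (adjusted p = 0.0174), which were the highest luteal phase ovaries for this gene.

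**Figure D2:**
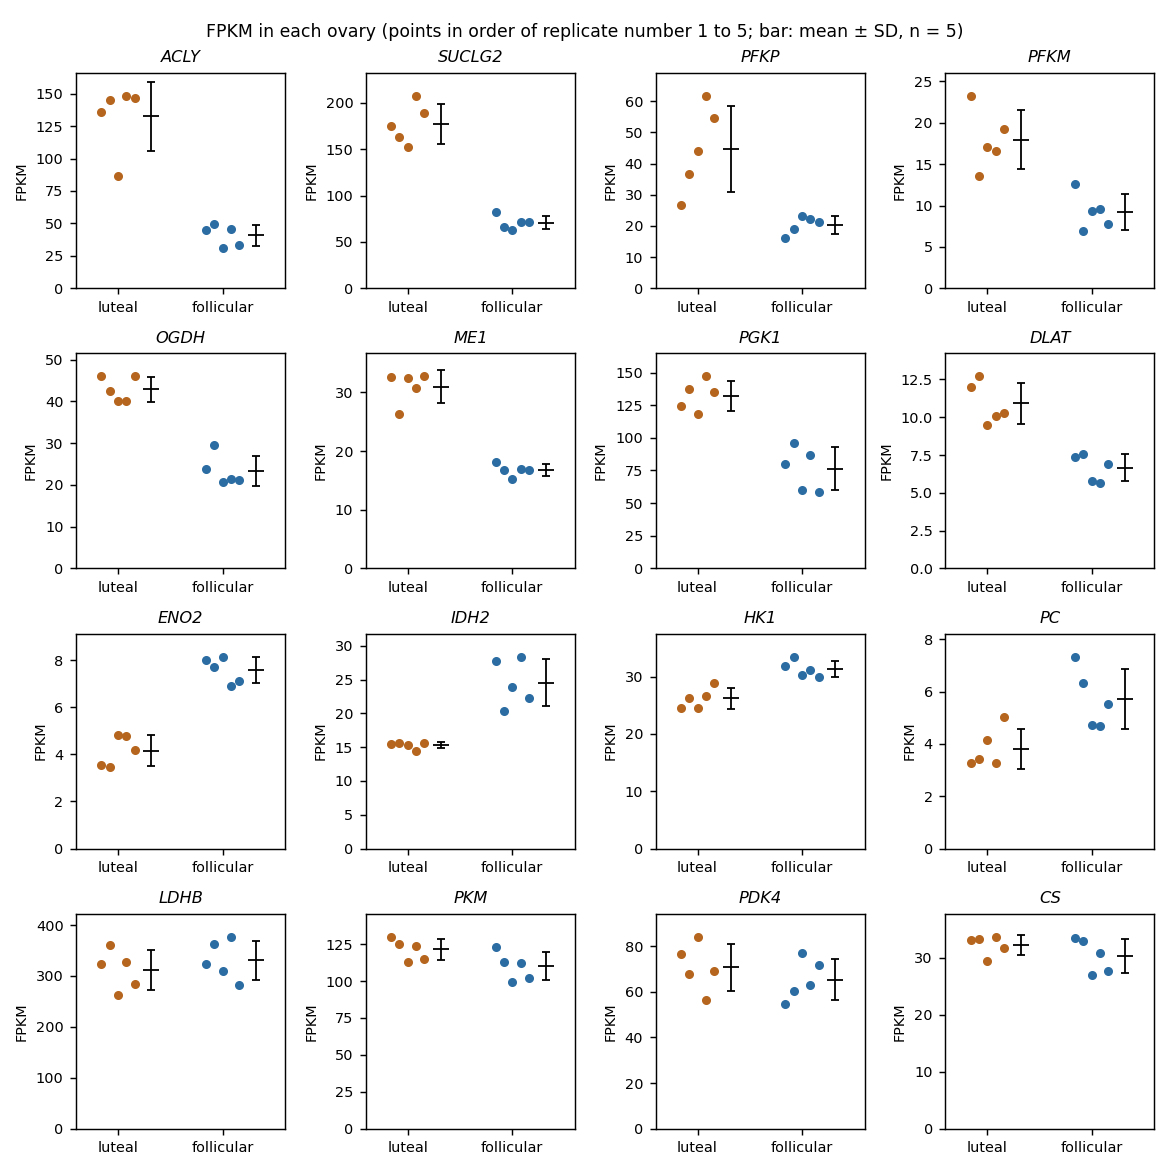
FPKM of 16 enzyme genes in each ovary, on axes that start at 0, with the mean and SD of 5 ovaries beside the points. ACLY, SUCLG2, PFKP, PFKM, OGDH, ME1, PGK1 and DLAT are separated with the luteal phase on top, ENO2, IDH2 and HK1 with the follicular phase on top, and LDHB, PKM, PDK4 and CS overlap.

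Lactate dehydrogenase interconverts pyruvate and lactate, and its B subunit was the most abundant member. LDHB was at 323, 360, 262, 328 and 284 FPKM in the luteal phase and at 324, 362, 310, 377 and 283 in the follicular phase. These ranges lay almost on top of each other (log2 fold change -0.09, standard error 0.11, limma adjusted p = 0.527), though quantile normalization gave a call at -0.22 (adjusted p = 0.0408). LDH-A, the entry for the A subunit, was at 70.0, 66.2, 47.1, 58.4 and 58.2 in the luteal phase and at 41.8, 66.2, 39.0, 53.2 and 31.9 in the follicular phase. Follicular phase ovaries 2 and 4 lay inside the luteal range, and the fold change of 0.40 (standard error 0.18) did not pass the test (limma adjusted p = 0.0888). Without follicular phase replicate 2 it was 0.54 (limma adjusted p = 0.0144), and on the TPM scale 0.50 (adjusted p = 0.0300). LDHB exceeded LDH-A in 10 of 10 ovaries.

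Pyruvate enters the citrate cycle through the pyruvate dehydrogenase complex, and 3 of its 4 listed subunits were called higher in the luteal phase, as were 15.9% of all tested genes. PDHA1, the catalytic E1 alpha subunit and the site of control by phosphorylation, was at 35.3, 41.4, 33.9, 37.4 and 34.5 FPKM in the luteal phase and at 30.0, 34.1, 26.6, 29.6 and 25.8 in the follicular phase. Only follicular phase ovary 2 overlapped the luteal range (log2 fold change 0.32, standard error 0.09, limma adjusted p = 0.0124). DLAT, the E2 core that carries the acetyl group, rose most, from 6.65 ± 0.895 to 10.9 ± 1.37 (SD, n = 5 each; log2 fold change 0.71, standard error 0.12, adjusted p = 0.000734). DLD, the E3 subunit that this complex shares with the oxoglutarate dehydrogenase complex, rose from 20.2 ± 1.56 to 27.4 ± 2.61 (log2 fold change 0.44, limma adjusted p = 0.00163). PDHB, the partner of PDHA1 in E1, was at 58.2 ± 2.18 in the luteal and 53.9 ± 4.76 in the follicular phase (adjusted p = 0.194). For DLAT and DLD the phases did not overlap.

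The pyruvate dehydrogenase kinases switch the complex off, and PDK4, the form induced by fasting and fatty acids, was the most abundant. PDK4 was at 76.4, 67.6, 84.1, 56.3 and 69.3 FPKM in the luteal phase and at 54.7, 60.2, 76.9, 63.1 and 71.9 in the follicular phase, with ranges that overlapped over most of their length (log2 fold change 0.11, limma adjusted p = 0.467). PDK1, a form induced under low oxygen, was at 10.5, 12.8, 12.2, 13.1 and 12.7 and at 8.28, 7.08, 8.74, 8.93 and 11.7. It rose by 0.47 on the log2 scale toward the luteal phase (standard error 0.12, limma adjusted p = 0.0102), with only follicular phase ovary 5 inside the luteal range. PDK3 was at 14.4, 16.1, 15.9, 17.6 and 16.4 and at 12.2, 10.3, 14.7, 14.0 and 15.0, a change of 0.29 (standard error 0.11, limma adjusted p = 0.0465). That call is marginal: it was lost in the 7 fits without luteal phase replicate 2, 3, 4 or 5 or follicular phase replicate 1, 2 or 4, with adjusted p up to 0.107, with no filter (adjusted p = 0.0556) and with eBayes without trend (adjusted p = 0.0625). PDK2 was at 6.05, 6.63, 6.32, 5.54 and 7.08 and at 7.21, 4.95, 6.35, 5.58 and 8.53, with a mean almost equal in the phases (limma adjusted p = 0.905). In 10 of 10 ovaries the order by FPKM was PDK4, PDK3, PDK1 and PDK2.

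Among the mitochondrial citrate cycle members the calls sat at the steps from isocitrate to succinate, but the members hold no subunit of succinate dehydrogenase. Outside the members, its subunits SDHA, SDHC and SDHD were also called higher in the luteal phase (log2 fold change 0.82, 0.54 and 0.33, limma adjusted p = 2.01e-05, 0.000417 and 0.0165). SDHB was not called (-0.07, limma adjusted p = 0.5). These subunits were named after their values were seen. All 11 mitochondrial members had a positive log2 fold change on the FPKM scale, among them SUCLG1 at 0.06, which turned to -0.04 under quantile normalization, and 4 were called higher in the luteal phase, beside 15.9% of all tested genes: IDH3G, OGDH, SUCLG2 and SUCLA2. CS, citrate synthase, the entry of the cycle, was at 33.2, 33.3, 29.4, 33.7 and 31.7 FPKM in the luteal phase and at 33.5, 32.9, 27.0, 30.9 and 27.6 in the follicular phase. These values overlapped (log2 fold change 0.09, standard error 0.08, limma adjusted p = 0.365). IDH3A, the catalytic subunit of the NAD-linked isocitrate dehydrogenase, was at 30.1, 26.4, 26.8, 30.7 and 32.1 and at 34.9, 29.6, 19.7, 23.6 and 27.8, with the follicular phase holding both the highest and the lowest ovary (adjusted p = 0.457). Its regulatory partner IDH3G rose from 26.6 ± 1.45 to 34.6 ± 1.70 (SD, n = 5 each; log2 fold change 0.38, standard error 0.06, limma adjusted p = 0.000724), while IDH3B was at 63.0 ± 5.75 in the luteal and 55.5 ± 2.50 in the follicular phase (adjusted p = 0.0685).

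OGDH, the E1 subunit of the oxoglutarate dehydrogenase complex and a control point of the cycle, was at 46.0, 42.5, 40.1, 40.0 and 46.0 FPKM in the luteal phase and at 23.8, 29.5, 20.7, 21.5 and 21.1 in the follicular phase. The lowest luteal phase ovary lay well above the highest follicular phase ovary. OGDH rose by 0.89 on the log2 scale (standard error 0.10, limma adjusted p = 6.08e-05). DLST, the E2 subunit of the same complex, was at 22.5 ± 0.852 and 20.7 ± 1.05 (SD, n = 5 each) and was not called (adjusted p = 0.134), so of the subunits particular to this complex only OGDH passed.

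Succinyl-CoA ligase pairs the alpha subunit SUCLG1 with a beta subunit that makes either GTP (SUCLG2) or ATP (SUCLA2). SUCLG2 was at 175, 163, 152, 207 and 189 FPKM in the luteal phase and at 81.8, 66.2, 63.3, 71.7 and 71.0 in the follicular phase, one of the widest separations among the members. The log2 fold change was 1.32 (standard error 0.10, limma adjusted p = 2.91e-06). SUCLA2 rose less, from 30.7 ± 1.91 to 38.0 ± 2.82 (SD, n = 5 each; log2 fold change 0.30, standard error 0.07, adjusted p = 0.00539). The shared alpha subunit SUCLG1 was at 67.7 ± 6.61 in the luteal and 64.8 ± 4.74 in the follicular phase (limma adjusted p = 0.574). FH, which hydrates fumarate, and MDH2, which closes the cycle, were at 73.6 ± 6.59 and 88.8 ± 9.83 in the luteal phase against 64.5 ± 8.50 and 73.7 ± 15.6 in the follicular phase, and neither was called (limma adjusted p = 0.121 and 0.112).

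The enzymes that carry citrate cycle carbon into the cytosol or make NADPH held the most changed member. ACLY, ATP citrate lyase, which cleaves exported citrate into the acetyl-CoA used for fatty acids and cholesterol, was at 136, 145, 86.2, 148 and 147 FPKM in the luteal phase and at 45.0, 49.7, 31.0, 45.6 and 33.4 in the follicular phase. Luteal phase ovary 3 was far below the other luteal phase ovaries and still above every follicular phase ovary. The log2 fold change was 1.69 (standard error 0.17, limma adjusted p = 3.36e-05), a fitted fold of 3.22. ME1, the cytosolic malic enzyme that makes NADPH, was at 32.6, 26.3, 32.5, 30.8 and 32.7 and at 18.1, 16.7, 15.3, 17.0 and 16.8, again without overlap (log2 fold change 0.88, standard error 0.08, limma adjusted p = 1.10e-05).

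Of the NADP-linked isocitrate dehydrogenases, the mitochondrial one moved the opposite way to ACLY and ME1. IDH2, the mitochondrial form, fell from 24.6 ± 3.45 FPKM in the follicular phase to 15.3 ± 0.478 in the luteal phase, without overlap (SD, n = 5 each; log2 fold change -0.67, standard error 0.09, limma adjusted p = 0.000252). The abundant cytosolic form IDH1 was at 177 ± 14.0 in the luteal and 164 ± 21.5 in the follicular phase (limma adjusted p = 0.327). ACO1, the cytosolic aconitase that also acts as an iron sensor, was at 20.3 ± 3.22 and 17.2 ± 0.415 (adjusted p = 0.103), and MDH1, the cytosolic malate dehydrogenase, at 174 ± 14.2 and 153 ± 12.4 (adjusted p = 0.0885). Of the genes around oxaloacetate, PC, pyruvate carboxylase, which refills the cycle, had 3.82 ± 0.768 FPKM in luteal and 5.71 ± 1.13 in follicular phase ovaries (log2 fold change -0.57, standard error 0.16, limma adjusted p = 0.0154). Luteal phase ovary 5, at 5.03, overlapped the follicular phase, and on the TPM scale the call was lost (adjusted p = 0.0603). PCK2, the mitochondrial phosphoenolpyruvate carboxykinase, was the scarcest member, at 1.40 ± 0.238 and 1.41 ± 0.346 (adjusted p = 0.967).

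Because FPKM is scaled by length, the share of 1 isoenzyme gene in the summed FPKM of its step could be compared between the phases independently of the scaling between ovaries. Each of 16 shares was tested by exact permutation of the ovaries, two-sided, with Benjamini-Hochberg adjustment over the 16. The smallest p that 5 ovaries against 5 allow is 0.00794. At an adjusted p under 0.05, 4 shares differed, and 8 had an unadjusted p under 0.05. SUCLG2 made up 82.3 ± 1.03% of the summed FPKM of the beta subunit genes of succinyl-CoA ligase in the luteal and 69.6 ± 3.14% in the follicular phase, with ranges of 81.0 to 83.2 and 66.8 to 74.7 (SD, n = 5 each; exact permutation p = 0.00794, adjusted 0.0317). The IDH2 share of IDH1 and IDH2 was 7.98 ± 0.665% and 13.1 ± 1.23% (same exact p and adjusted p). ALDOC held 2.32 ± 0.264% and 1.46 ± 0.251% of the aldolase FPKM and ENO1 96.0 ± 0.700% and 94.3 ± 0.826% of the enolase FPKM, each with the same exact p and adjusted p. For ENO1 the ranges met at 95.1% after rounding.

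The other shares did not pass the adjusted threshold. LDHB held 83.9 ± 1.20% of the lactate dehydrogenase FPKM in the luteal and 87.9 ± 2.03% in the follicular phase, where follicular phase ovary 2 at 84.5% lay inside the luteal range of 82.2 to 84.9 (SD, n = 5 each; exact permutation p = 0.0238, adjusted 0.0635). ENO2 held 2.29 ± 0.557% and 3.66 ± 0.652% of the enolase FPKM (exact permutation p = 0.0238, adjusted 0.0635). PFKL held 11.8 ± 3.86% and 19.8 ± 4.62% of the phosphofructokinase FPKM (exact permutation p = 0.0317, adjusted 0.0726), and PDK1 11.7 ± 1.76% and 9.49 ± 1.10% of the kinase FPKM (exact permutation p = 0.0476, adjusted 0.0952). PDK4 held 66.8 ± 4.33% and 69.5 ± 2.91% (exact permutation p = 0.294). The number of shares past the adjusted threshold ranged from 0 to 5 when 1 ovary was left out, with 0 without follicular phase replicate 1 or 4. The ENO1 share passed only without luteal phase replicate 3 and missed in the other 9 fits (exact permutation adjusted p from 0.0508 to 0.102), and ALDOC also missed without follicular phase replicate 2 (adjusted p = 0.0508). With 16 shares the smallest exact p passes the adjusted threshold only where at least 3 shares reach it, and the differences stayed similar in size. Without 1 ovary the luteal share minus the follicular share was 12.0 to 13.9 percentage points for SUCLG2, -5.38 to -4.72 for IDH2, 0.77 to 0.96 for ALDOC and 1.42 to 1.86 for ENO1. With the most abundant transcript of each gene in place of the sum, ENO1 lost its call (exact permutation adjusted p = 0.0726) and LDHB gained one (adjusted p = 0.0317).

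**Figure D3:**
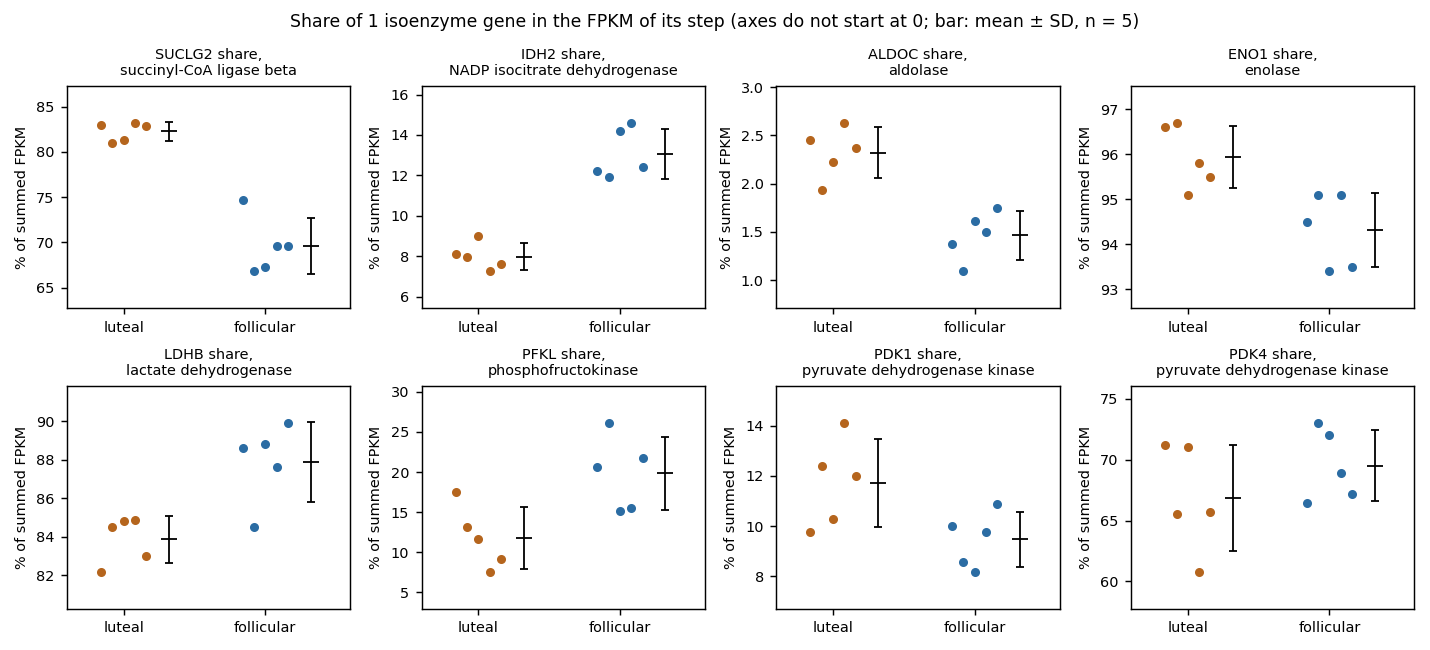
Share of 1 gene in the summed FPKM of its step in each ovary, in percent, with the mean and SD of 5 ovaries, on axes that do not start at 0. The phases are separated for SUCLG2 (81.0 to 83.2% luteal, 66.8 to 74.7% follicular), IDH2, ALDOC and ENO1 and overlap for LDHB, PFKL, PDK1 and PDK4.

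Most members are represented by a single transcript model, 30 of 43, so their gene value is that transcript's value. The 43 genes had 78 transcripts, 64 of which passed the filter, and limma called 15 higher in the luteal and 3 in the follicular phase with adjustment over 32842 transcripts. Of all transcripts 17.3% were called, 7.47% as higher in luteal and 9.82% as higher in follicular phase ovaries. The rise of OGDH, PFKM and ACLY was carried by their main models, XM_018047029.1 (94.2% of the OGDH FPKM; log2 fold change 0.92, limma adjusted p = 0.000200), XM_018047859.1 (93.6% of PFKM; 1.05, adjusted p = 0.00163) and XM_005693834.3 (90.6% of ACLY; 2.24, adjusted p = 0.0203). The ACLY value rests partly on follicular phase ovary 3, where this model was at 4.77 FPKM against 30.3 to 44.9 in the other follicular phase ovaries, and in a fit without that ovary, added after seeing the data, it was 1.64 (limma adjusted p = 0.000694). The fall of ENO2 in the luteal phase was that of XM_018047555.1 (96.9% of its FPKM; -0.90, limma adjusted p = 0.000976). Pyruvate kinase had a pair of models, and the minor one, XM_005685177.3, held 12.4% of the PKM FPKM in the luteal and 13.2% in the follicular phase on average.

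Isoform values were less stable than their sums in some ovaries, examples of which were chosen after their values were seen. In follicular phase ovary 3 the ACLY model XM_005693833.3 held 81.3% of the gene's FPKM, against 6.43 to 8.30% in the other follicular phase ovaries, while the gene sum in that ovary, 31.0, was near the 33.4 of follicular phase ovary 5. The main IDH3G model, XM_018044772.1, held between 18.4 and 85.0% of the gene's FPKM in the follicular phase and between 47.9 and 85.7% in the luteal phase. The sum of IDH3G varied by only a few FPKM within each phase, and no single IDH3G transcript was called. Likewise the PC call at the gene level had no called transcript among the 10 PC models.

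Some ovaries stood at the end of their group's range for many members. Luteal phase ovary 3 was the lowest luteal phase ovary for 25 of the 43 members (58.1%), against 24.5% of all tested genes, and the highest for 2. In the follicular phase, ovary 2 was the highest for 18 members (41.9%, against 24.1% of all genes) and ovary 3 the lowest for 18 (41.9%, against 17.1%). The members' median coefficient of variation between ovaries was 9.22% in the luteal and 13.2% in the follicular phase, and that of all tested genes 14.5 and 16.1%. Summed FPKM of the members was between 0.517 and 0.614% of all FPKM in the luteal phase ovaries and between 0.419 and 0.503% in the follicular phase ovaries.

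**Figure D4:**
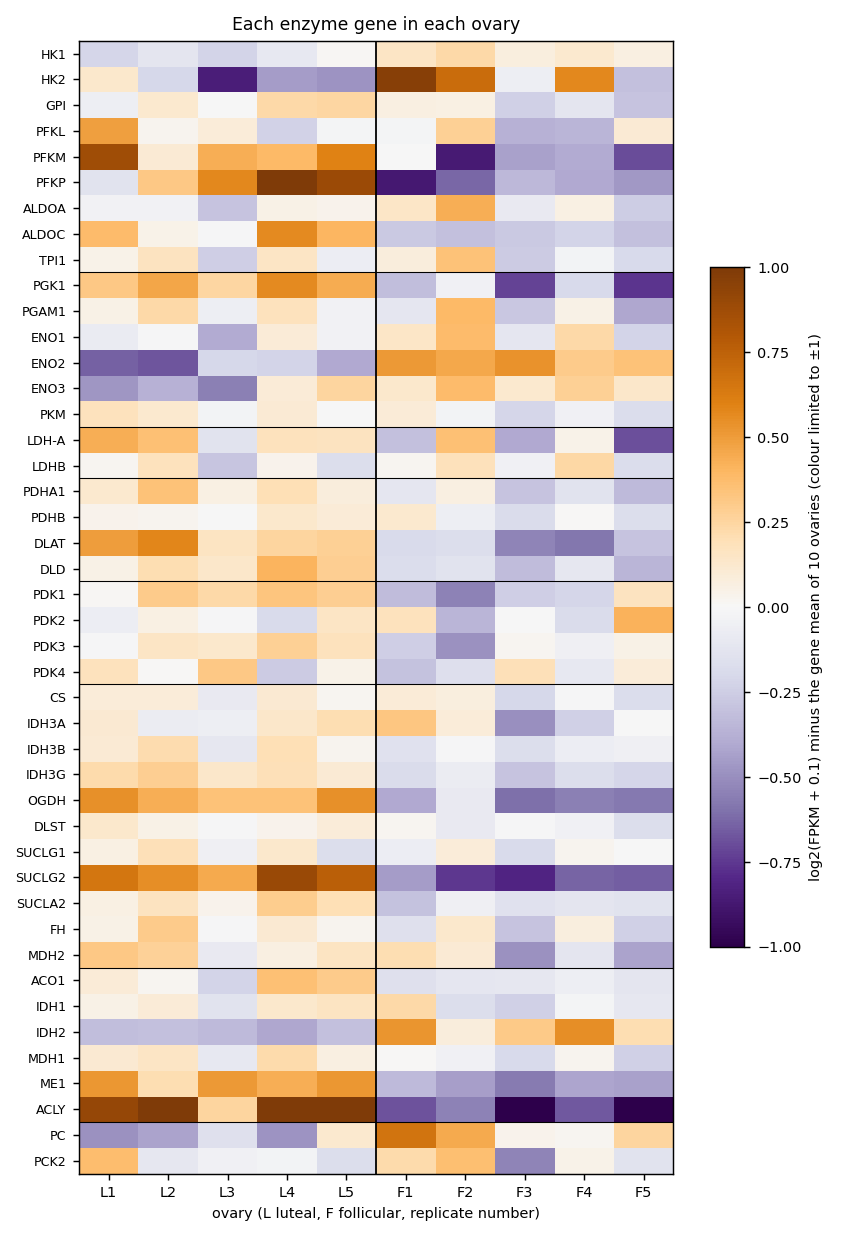
Each enzyme gene (rows) in each of the 10 ovaries (columns), as log2(FPKM + 0.1) minus the gene's mean over the ovaries, with the colour limited to ±1. ACLY, SUCLG2, ME1, OGDH and PGK1 change colour at the line between the phases, and luteal phase ovary 3 (L3) is the lowest luteal phase column for ACLY, ENO1, LDH-A and LDHB.

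Other genes of these pathways were taken from 5 further lists. Of 59 listed genes 55 were in the table and 51 were tested, of which 16 were higher in the luteal and 7 in the follicular phase, with a median log2 fold change of -0.05, beside the 15.9% and 27.8% of all tested genes called in these directions. FBP1, fructose-1,6-bisphosphatase, which runs the phosphofructokinase step backwards, rose from between 2.58 and 5.03 FPKM in the follicular phase ovaries to between 11.9 and 17.3 in the luteal phase ovaries (log2 fold change 2.13, standard error 0.17, limma adjusted p = 5.37e-06). LDHD, which oxidises D-lactate, rose from 1.54 ± 0.427 to 3.14 ± 0.467 (SD, n = 5 each; log2 fold change 1.01, adjusted p = 0.00169). HKDC1 and PGAM2 were higher in the follicular phase but below 1 FPKM in every ovary (log2 fold change -1.02 and -1.04, limma adjusted p = 0.0243 and 0.00923). In the glycolysis and gluconeogenesis list as a whole, 3 of 15 tested genes were higher in the luteal and 4 in the follicular phase.

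Some genes next to the pyruvate dehydrogenase complex and the citrate cycle also differed. Those below the size rule were named after their values were seen. In the list of PFK-2 and pyruvate dehydrogenase control, 4 of 9 tested genes were higher in the luteal and 1 in the follicular phase. Of all tested genes, 15.9% and 27.8% were called in these directions. The mitochondrial pyruvate carrier subunits MPC1 and MPC2 rose by 0.68 and 0.79 on the log2 scale toward the luteal phase (limma adjusted p = 0.000537 and 0.000237). PDP1, a phosphatase that switches the complex on, had 13.9 ± 1.80 FPKM in luteal and 22.4 ± 1.73 in follicular phase ovaries (SD, n = 5 each; log2 fold change -0.69, limma adjusted p = 0.000260). The phosphatase PDP2 was not called (limma adjusted p = 0.413). Neither was PDHX, a further subunit of the complex, at 9.81 ± 0.508 in the luteal and 9.45 ± 0.611 in the follicular phase (limma adjusted p = 0.578). Of 13 tested citrate cycle genes outside the members, 6 were called higher in the luteal phase and none lower, beside the same 15.9% and 27.8% over all genes. They included SDHA, the flavoprotein of succinate dehydrogenase (0.82, limma adjusted p = 2.01e-05) and SLC25A1, the carrier that exports citrate to ACLY (0.77, adjusted p = 0.00164). RPIA, of the ribose branch of the pentose phosphate pathway, was lower in luteal phase ovaries, with a log2 fold change of -0.58 (limma adjusted p = 0.000173), and 4 of the 6 tested genes of that pathway were not called. Among 8 regulators of the response to low oxygen, EPAS1, also called HIF2A and abundant in endothelium, rose by 1.48 (limma adjusted p = 9.99e-06), HIF1A by 0.60 (adjusted p = 0.0252), and HIF3A, below 1 FPKM in every ovary, changed by -0.88 (adjusted p = 0.0143).

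**Figure D5:**
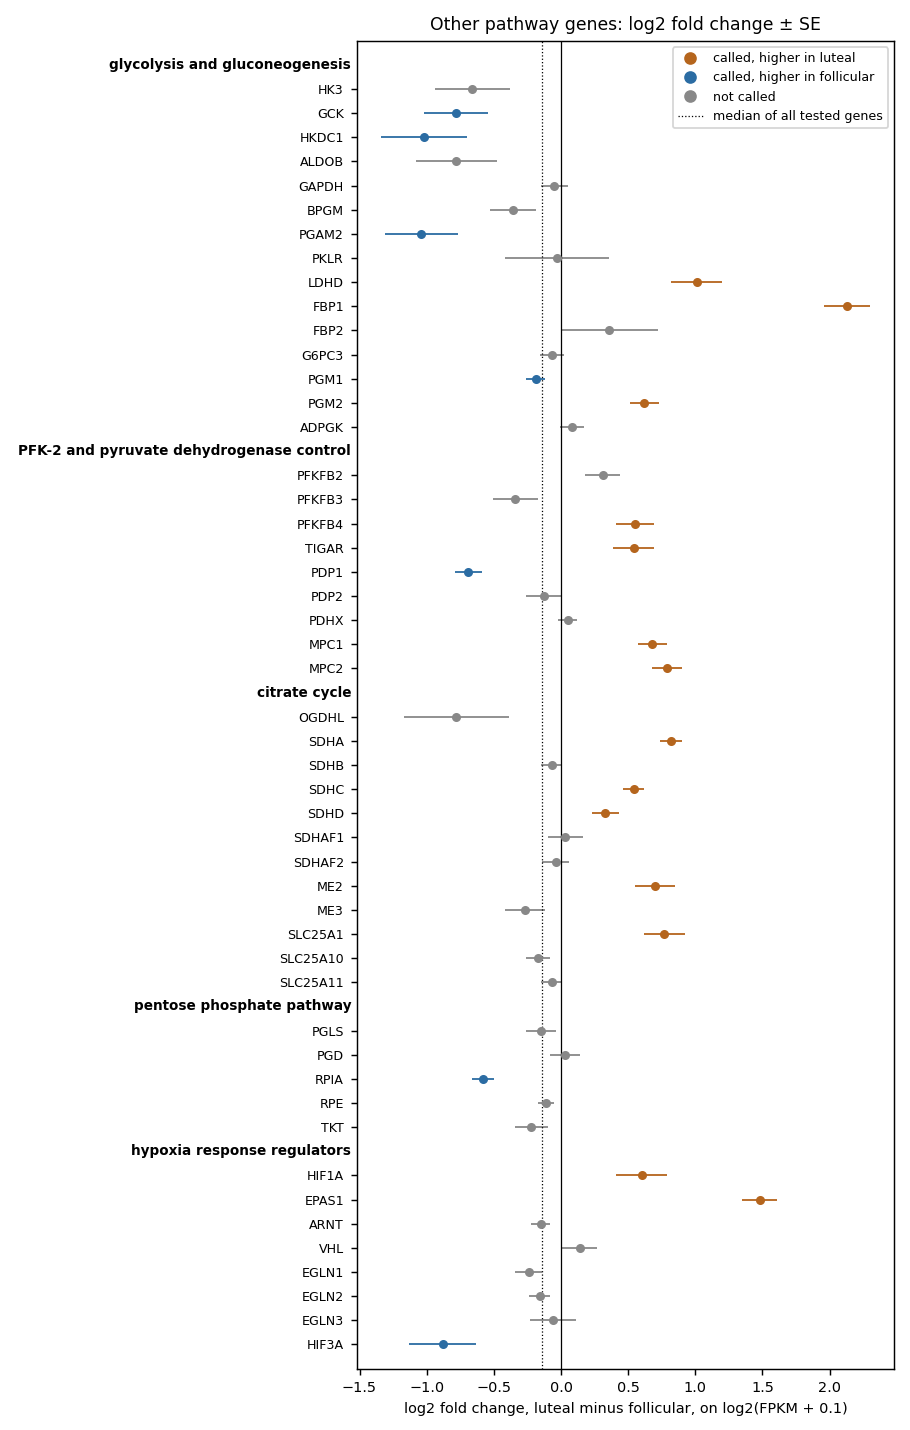
Log2 fold change with bars of 1 standard error for other tested genes of the pathways and their control, luteal minus follicular, on log2(FPKM + 0.1). FBP1 at 2.13 and EPAS1 at 1.48 lie farthest toward the luteal phase, and PGAM2 at -1.04 and HKDC1 at -1.02 farthest toward the follicular phase.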

How the data were processed

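The deposited FPKM of each transcript model in each ovary were made by the authors with HISAT2 (alignment), StringTie (assembly) and Cuffdiff (quantification) from strand-specific reads. The genome build is not given in the sources used here. FPKM of transcripts whose gene the deposited table types as protein-coding were summed per symbol (for IDH3B this includes a model with RefSeq's non-coding prefix XR), and genes or transcripts that reached 0.1 FPKM in 5 or more of the 10 ovaries were tested on log2(FPKM + 0.1) with limma 3.58.1 (eBayes with trend, R 4.3.3). Isoenzyme shares used exact permutation in Python 3.11.15. The members and lists were chosen with earlier results of these data known. The named-gene rule gave values per ovary to members called with an absolute log2 fold change of at least 0.8 and to named control points, and values to other pathway genes called with at least 1. Transcripts were to be named where models with at least 10% of a gene's FPKM had opposite calls or log2 fold changes at least 1 apart, which none did. Alternatives were other pseudocounts, filters, scalings, thresholds, eBayes without trend, a replicate block and leaving out each ovary. In simulated data for 15275 genes the phase difference was removed and known changes were added to 200 genes. Of changes of 1 on the log2 scale 69% were recovered, and of changes of 0.5, 30%. With so few changed genes the adjustment was stricter than in the real fit, where 43.7% of genes were called. These rates therefore do not measure recovery in the real fit, and an uncalled gene may still differ. LDHC, G6PC1, PDPR and TALDO1 were not analysed here, nor were the markers HSD3B1, OOEP, MYH7, HBA1, HBB and HBE1. CYP11A1 was found by synonym. Values of some genes of the other pathway lists are not reported here, in the text or the plots.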

Additional observations from a re-analysis of the deposited data

Results flagged for a closer look

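Of 88 groups of 5 ovaries examined, which is each enzyme gene with LDH-A in each phase, 4 held an ovary whose gap to its nearest neighbour exceeded Dixon's 95% critical value of 0.71 of the range, and chance flags about 1 group in 20. ALDOA was at 94.7 FPKM in luteal phase ovary 3, below the 113 to 120 of the other luteal phase ovaries. ACLY was at 86.2 in the same ovary, below 136 to 148. ME1 was at 26.3 in luteal phase ovary 2, below 30.8 to 32.7. PCK2 was at 1.82 in luteal phase ovary 1, above 1.22 to 1.35.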

How the results depend on the processing

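Of the 20 called members, 16 kept their call under all 19 alternative fits at the gene level at an adjusted p under 0.05, and no called member changed sign. HK1, HK2, PDK3 and PC lost it under at least 1, with adjusted p from 0.0505 to 0.116, and 11 uncalled members were called under at least 1. Members called higher in the luteal phase numbered 24 on the TPM scale, and members called higher in the follicular phase 2 on the TPM scale, 3 after a shift to a common median and 3 at an adjusted p under 0.01, where luteal calls numbered 12 and HK2, PC, PDHA1, PDK1 and PDK3 were lost. Leaving out 1 ovary gave 14 to 17 and 4 to 5. Isoenzyme shares past the threshold numbered 8 without adjustment, an alternative chosen after seeing the data, 0 to 5 when 1 ovary was left out, and 0 with equal replicate numbers paired by sign flips, a test that 5 pairs cannot pass at 0.05. A replicate block in limma gave 20 luteal and 5 follicular calls. Deviations of equal numbers correlated at 0.026 to 0.199 and those of unequal numbers at -0.245 to 0.224. Not every ovary correlated best with its own number. These values cannot settle whether ovaries of equal number share more than the number, such as a batch or an animal. Counting LDH-A as a member, also chosen after seeing the data, left 15 and 5 calls. Uncalled genes whose sign turned were PDK2 (0.06 with a common median, 0.05 with quantile normalization, 0.08 on the TPM scale, -0.11 to 0.08 without 1 ovary), TPI1 (-0.05 with quantile normalization, -0.04 to 0.11 without 1 ovary), SUCLG1 (-0.04 with quantile normalization), LDHB (0.01 on the TPM scale) and PCK2 (-0.12 to 0.10 without 1 ovary). The cause of these changes was not tested. Depth per ovary is unknown, which limits statements on scarce genes such as PCK2 and HK2.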
